A study of Mus musculus with 6 samples.

Results

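The genes described here are 33 mouse genes that are switched on by type I interferon. They were chosen by name, and all 33 are among the 30777 genes of the deposited table. RNA was sequenced from whole colon tissue of BALB/c mice, a common inbred strain, in 6 libraries. In 3 libraries (5-Fu 1 to 3) the mice had received 5-fluorouracil, a pyrimidine analogue used in chemotherapy that injures the dividing cells of the gut lining. In the other 3 (5-Fu+BBR 1 to 3) they had received 5-fluorouracil together with berberine, a plant alkaloid, and the study asked which colon genes go with berberine. All 6 libraries therefore share the drug 5-fluorouracil, and a group without it was not analysed here. The labels do not say how many animals a library stands for, so the p-values measure the spread between these libraries, which may be technical in part.

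Type I interferons, which are interferon beta and the interferon alphas, are secreted when a cell senses foreign or misplaced nucleic acid. They bind a receptor made of Ifnar1 and Ifnar2, the kinases Jak1 and Tyk2 then phosphorylate Stat2, and Stat2 with Irf9 forms part of a complex called ISGF3 that binds short response elements in promoters. Lambda interferons, which act mainly on epithelia such as that of the intestine, use a receptor of their own and end at the same complex. Many of the genes that are switched on belong to the pathway themselves: sensors of viral RNA, the transcription factors, and brakes such as Usp18.

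The 6 libraries held between 53824752 and 63831168 estimated counts. Of the 30777 genes 20101 passed the filter on low counts, and all 33 interferon stimulated genes were among them. The 10 markers of colon epithelium were expressed in every library, with summed levels of 11293 to 15570 CPM (counts scaled to library depth and composition). Kidney markers stood apart: their summed level was 180 and 182 CPM in the 5-Fu+BBR libraries 2 and 3, and 37.0 to 59.0 CPM in the other 4. Values without each of these libraries are therefore given below. Every pair of libraries differed by more than sampling noise.

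The promoters come first, since ISGF3 is known to act through short promoter elements. The response element that ISGF3 and other interferon regulatory factors bind is built of repeated GAAA letters, and it was searched as GAAANNGAAA and, on the other strand, TTTCNNTTTC, in the 300 bases that run from 250 before to 50 after each gene start in RefSeq (GRCm38.p6). Promoter entries were found for 24 of the 33 genes, and 13 of the 24 (54.2%) held the letters at least once. Counted over promoters, since a gene can have several, it was 14 of 27 (51.9%) beside 1131 of all 32851 promoters (3.44%). The genes with a match were Stat2, Ddx58, Ifih1, Oas1a, Oas1g, Oas3, Ifit1, Ifit3, Ifit3b, Rsad2, Bst2, Isg15 and Trim30a. Those with an entry and without these letters in the window were Irf7, Irf9, Oasl1, Oasl2, Ifit2, Cmpk2, Ifi44, Herc6, Dtx3l, Xaf1 and Ifi35. Mx1, Mx2, Oas2, Usp18, Rtp4, Parp14, Parp9, Dhx58 and Ifi27 had no entry.

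Stretches around the matches follow, written 5′ to 3′ on the strand of the gene, with the matching letters in capitals. Stat2, Ddx58, Oas1a, Ifit1, Rsad2, Isg15 and Trim30a were taken as one gene per role. Ifit3 with Ifit3b and Oas1g beside Oas1a are shown because they are near copies, and Bst2 because it had the smallest p. These last 4 were chosen after their values were seen.
Stat2, chr10:128270251-128270310, plus strand: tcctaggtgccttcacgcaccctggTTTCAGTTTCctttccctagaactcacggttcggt
Ddx58, chr4:40239804-40239833, minus strand: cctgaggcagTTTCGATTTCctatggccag
Oas1a, chr5:120907526-120907570, minus strand: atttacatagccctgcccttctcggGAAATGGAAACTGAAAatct
Oas1g, chr5:120887614-120887656, minus strand: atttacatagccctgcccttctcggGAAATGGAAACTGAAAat
Ifit1, chr19:34640760-34640838, plus strand: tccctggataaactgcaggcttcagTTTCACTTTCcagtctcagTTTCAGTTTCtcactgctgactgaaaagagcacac
Ifit3, chr19:34583348-34583441, plus strand: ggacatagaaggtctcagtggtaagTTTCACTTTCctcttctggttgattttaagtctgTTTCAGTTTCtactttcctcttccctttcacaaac
Ifit3b, chr19:34607744-34607837, plus strand: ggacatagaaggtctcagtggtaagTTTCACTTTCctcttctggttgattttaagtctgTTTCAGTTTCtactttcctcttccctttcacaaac
Rsad2, chr12:26456538-26456597, minus strand: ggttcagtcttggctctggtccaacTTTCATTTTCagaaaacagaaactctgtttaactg
Bst2, chr8:71537562-71537627, minus strand: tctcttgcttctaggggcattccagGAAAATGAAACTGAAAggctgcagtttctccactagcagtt
Isg15, chr4:156200850-156200921, minus strand: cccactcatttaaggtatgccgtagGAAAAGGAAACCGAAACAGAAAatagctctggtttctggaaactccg
Trim30a, chr7:104465195-104465254, minus strand: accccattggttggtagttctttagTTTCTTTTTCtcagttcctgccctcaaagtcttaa

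In most of these stretches the match lay in front of the gene start, between 222 bases (Stat2) and 12 bases (the nearer match of Oas1g) before it. In Ddx58 it began at base 3 after the start. The stretches of Ifit3 and Ifit3b were identical over 94 bases, and those of Oas1a and Oas1g shared a run of 43 bases. Isg15 held 3 overlapping matches, and Oas1a, Oas1g and Bst2 held 2 overlapping matches each. Ifit1, Ifit3 and Ifit3b held 2 separate matches. A match describes the letters of the reference genome and not a site shown to be bound in these samples.

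In CPM, 32 of the 33 genes were highest in 5-Fu+BBR libraries 1 and 2, beside 9.46% of all genes tested. For 29 of these, 5-Fu+BBR library 3 also lay within the range of the 5-Fu libraries (4.35% of all genes tested). The 5-Fu libraries also differed from each other, with library 1 lowest, library 3 between and library 2 highest for 31 of the 33 genes (14.9% of all genes tested). With Ifi27, library 3 of 5-Fu+BBR lay within that range for 30 of the 33 (45.3% of all genes tested). All 3 features together held for 28 of the 33 genes and for 275 of the genes tested (1.37%).

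**Figure D1:**
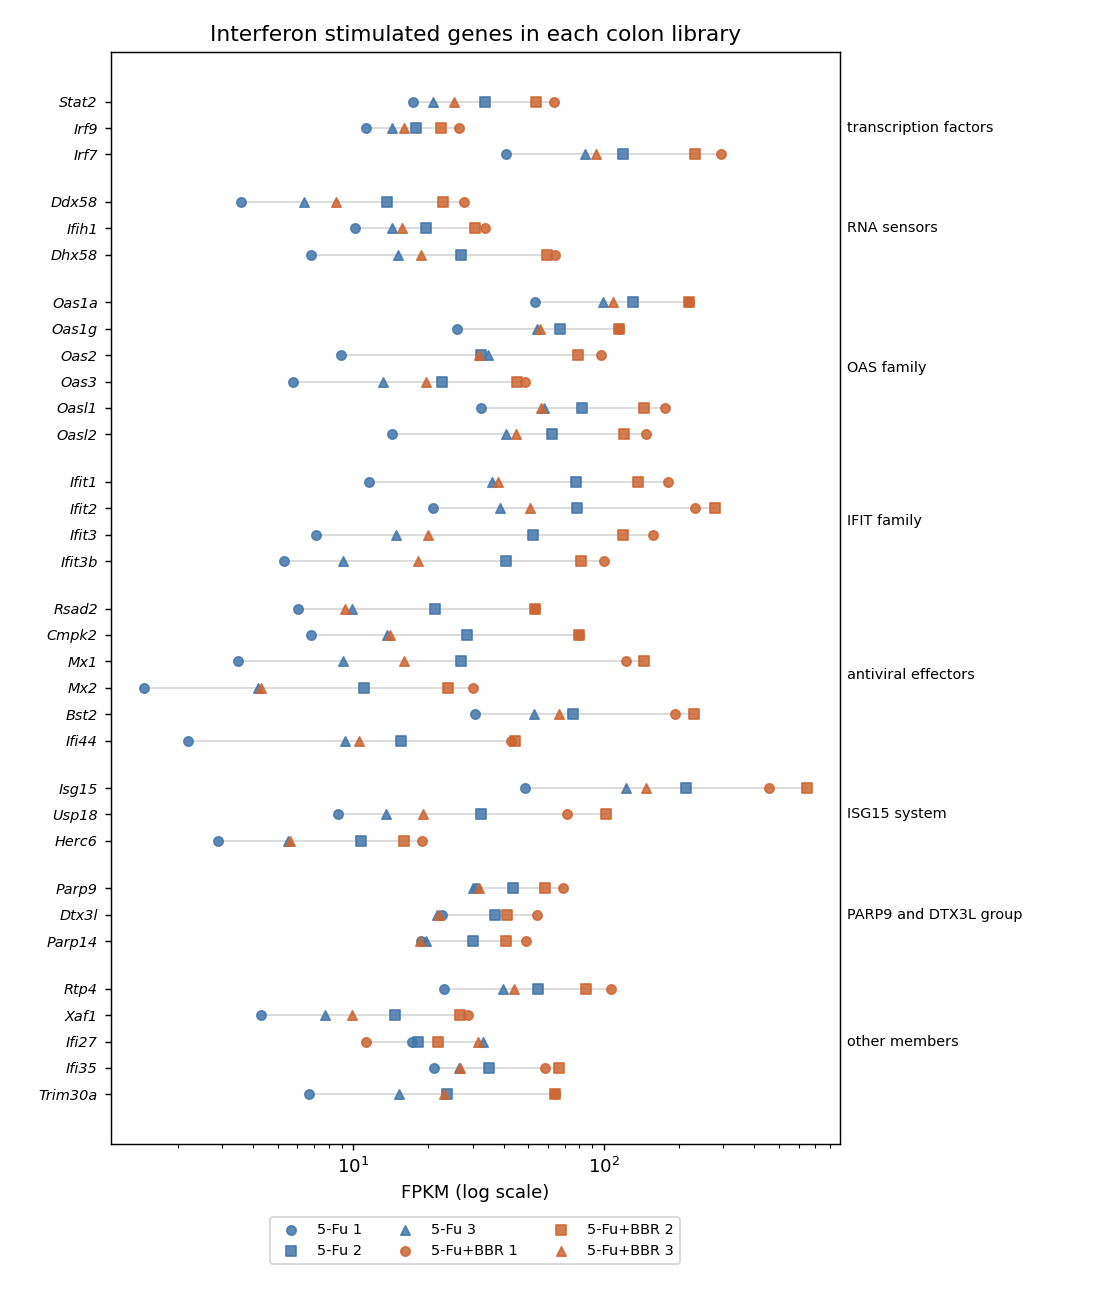
Level of each of the 33 interferon stimulated genes in FPKM (log axis), grouped by role, with a point per library: blue for 5-Fu, orange for 5-Fu+BBR, and circle, square and triangle for libraries 1, 2 and 3. In all rows but Ifi27 the orange circle and square lie to the right of the other 4 points, and the orange triangle lies among or next to the blue points.

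Relative to the mean of the 5-Fu libraries on a log2 scale of CPM, the median of the 33 genes was -0.88, 0.80 and 0.11 in 5-Fu libraries 1, 2 and 3, and 2.05, 1.82 and 0.27 in 5-Fu+BBR libraries 1, 2 and 3. Libraries 1 and 2 of 5-Fu were thus farther apart than 5-Fu+BBR library 3 was from any 5-Fu library. From the lowest to the highest library the level in FPKM (fragments scaled to transcript length and sequencing depth) differed between 2.29-fold (Parp9) and 42.0-fold (Mx1), with a median of 7.79-fold. Within 5-Fu alone, library 2 exceeded library 1 by a median of 3.57-fold. Within 5-Fu+BBR, library 1 exceeded library 3 by a median of 3.11-fold.

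Between the groups, 32 of the 33 genes had a positive log2 fold change (5-Fu+BBR minus 5-Fu), beside 50.7% of all genes tested, and the median was 1.43 beside 0.005 over all genes tested. With edgeR's quasi-likelihood test and Benjamini-Hochberg adjustment over all genes tested, 0 of the 33 were called higher and 0 lower at an adjusted p under 0.05, where 0.0597% and 0.0149% of all genes were called higher and lower. Their adjusted p ran from 0.251 (Bst2) to 0.930 (Ifi27). At an unadjusted p under 0.05 there were 13 of the 33, all higher, beside 9.47% of all genes higher and 6.08% lower. DESeq2 called 1 of the 33 higher (Stat2), where it called 3.85% of all genes higher and 1.2% lower, and limma-voom called 0, where it called 0.0846% higher and 0.0199% lower. Groups that do not overlap in CPM were found for 1 of the 33, Trim30a, with 5-Fu+BBR higher (12.3% of all genes tested), and for 0 with 5-Fu+BBR lower (9.68%).

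**Figure D2:**
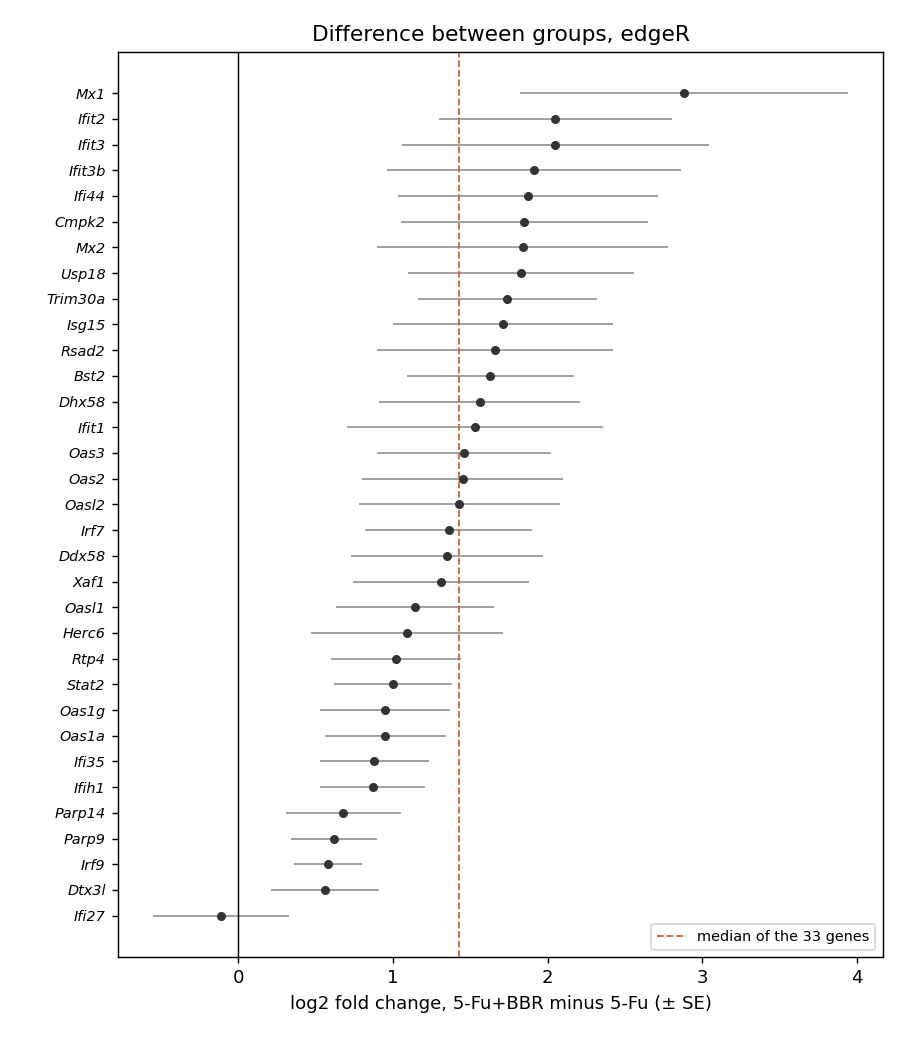
Log2 fold change of each of the 33 genes from edgeR (5-Fu+BBR minus 5-Fu, points) with its standard error (bars), 3 libraries per group, sorted by size, with the median of 1.43 as a dashed line. Mx1 is highest at 2.88 and Ifi27 is the single gene below 0, at -0.11.

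Leaving out 1 library moved these values. The median log2 fold change was 1.03 without 5-Fu library 1 and 1.86 without 5-Fu library 2. It was 1.05 without 5-Fu+BBR library 1, 1.29 without library 2 and 1.77 without library 3. The number of the 33 at an unadjusted p under 0.05 with edgeR, 13 with all libraries, was 32 without 5-Fu+BBR library 3, where 7.89% of all genes were so higher. It was 16 without 5-Fu library 2 (9.98% of all genes) and 2 without 5-Fu library 1 (6.81%). It was 0 without 5-Fu library 3 (10.6%), without 5-Fu+BBR library 1 (8.27%) and without 5-Fu+BBR library 2 (5.7%). All of these genes were higher in 5-Fu+BBR.

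The 3 transcription factors of the list, Stat2, Irf9 and Irf7, had the same order of libraries. Stat2 (ENSMUSG00000040033, chromosome 10, 128270559 to 128292849, plus strand, GRCm38) is the subunit that brings ISGF3 its activation domain. It was at 17.3, 33.5 and 20.8 FPKM in 5-Fu libraries 1, 2 and 3, and at 63.2, 53.7 and 25.2 FPKM in 5-Fu+BBR libraries 1, 2 and 3. The groups overlapped, because 5-Fu+BBR library 3 lay below 5-Fu library 2. The log2 fold change was 1.0 ± 0.38 (SE, n = 3 per group, adjusted p = 0.285 with edgeR). DESeq2 gave Stat2 an adjusted p of 0.0407, and over the alternatives its adjusted p ran from 0.0407 to 0.586.

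Irf9 (ENSMUSG00000002325, chromosome 14, 55603571 to 55610030, plus strand), the subunit that reads the response element, had the smallest spread of these 3. Its levels were 11.3, 17.9 and 14.3 FPKM in 5-Fu and 26.5, 22.5 and 16.0 FPKM in 5-Fu+BBR, each in the order of libraries 1, 2 and 3. Again library 3 of 5-Fu+BBR lay below library 2 of 5-Fu (log2 fold change 0.58 ± 0.22, adjusted p = 0.278). Irf7 (ENSMUSG00000025498, chromosome 7, 141262706 to 141266481, minus strand) amplifies the transcription of the interferon alpha genes. It was the most abundant of the 3 per length, at 40.6, 119 and 84.2 FPKM in 5-Fu and 293, 232 and 93.2 FPKM in 5-Fu+BBR. The lowest and the highest library of Irf7 differed 7.22-fold, against 3.65-fold for Stat2 and 2.34-fold for Irf9 (log2 fold change of Irf7 1.36 ± 0.54, adjusted p = 0.307).

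The sensors of viral RNA followed the transcription factors library by library. Ddx58 (ENSMUSG00000040296, chromosome 4, 40203773 to 40239825, minus strand) encodes RIG-I, a helicase that recognises RNA ends and signals through Mavs. Its level was 3.57, 13.7 and 6.35 FPKM in the 5-Fu libraries and 27.8, 22.9 and 8.54 FPKM in the 5-Fu+BBR libraries. The lowest 5-Fu library and the highest 5-Fu+BBR library differed 7.79-fold, the median of the 33 genes, while 5-Fu library 2 exceeded 5-Fu+BBR library 3. Ifih1 (ENSMUSG00000026896, chromosome 2, 62595798 to 62646211, minus strand), the sensor MDA5 of long RNA duplexes, ran from 10.2 to 19.5 FPKM in 5-Fu and from 15.7 to 33.6 FPKM in 5-Fu+BBR. Dhx58 (ENSMUSG00000017830, chromosome 11, 100694884 to 100704271, minus strand) encodes LGP2, a relative of both that lacks the signalling domains. It ran from 6.78 to 26.9 FPKM in 5-Fu and from 18.7 to 64.2 FPKM in 5-Fu+BBR. The log2 fold changes were 1.35 ± 0.62 (Ddx58, adjusted p = 0.372), 0.87 ± 0.34 (Ifih1, adjusted p = 0.287) and 1.56 ± 0.65 (Dhx58, adjusted p = 0.331).

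Most proteins of the OAS family make short oligoadenylates when they meet RNA duplexes, and these activate the nuclease RNase L. The 6 OAS genes of the list lie in 2 clusters of chromosome 5. Oas2, Oas3, Oas1g and Oas1a are found between 120730333 and 120907521, and Oasl2 and Oasl1, whose products carry ubiquitin-like domains, between 114896936 and 114937915. Oas1a (ENSMUSG00000052776) was the most abundant per length, at 53.0, 131 and 99.3 FPKM in 5-Fu and 219, 220 and 109 FPKM in 5-Fu+BBR. Its near copy Oas1g (ENSMUSG00000066861) was at 26.1, 67.1 and 54.3 FPKM and at 115, 115 and 55.9 FPKM. In both, 5-Fu+BBR library 3 was close to 5-Fu library 3 and below 5-Fu library 2. Reads can be split between such copies, so their separate values are uncertain.

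Oas2 (ENSMUSG00000032690) departed from the usual order within 5-Fu, since its level in CPM was highest in library 3 instead of library 2. It was at 8.93, 32.5 and 34.7 FPKM in 5-Fu and 97.8, 78.8 and 31.9 FPKM in 5-Fu+BBR. Within 5-Fu, library 1 stood apart from the other 2. Oas3 (ENSMUSG00000032661) ran from 5.77 to 22.6 FPKM in 5-Fu and from 19.5 to 48.4 FPKM in 5-Fu+BBR. Oasl1 (ENSMUSG00000041827) ran from 32.4 to 81.8 and from 56.0 to 175 FPKM, and Oasl2 (ENSMUSG00000029561) from 14.3 to 62.5 and from 44.8 to 148 FPKM. All 6 overlapped between the groups, with log2 fold changes from 0.95 (Oas1a and Oas1g) to 1.46 (Oas3), a median of 1.29, and adjusted p from 0.301 to 0.368.

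The IFIT family showed the largest median difference of the roles (1.98 on the log2 scale) together with a wide spread within groups. Its proteins bind viral RNA that lacks the cap marks of the host. The 4 genes of this family in the list, Ifit2, Ifit3, Ifit3b and Ifit1, lie close together on chromosome 19, from 34550694 to 34650009. Ifit1 (ENSMUSG00000034459), which holds 2 matches to the response element in the stretch above, was at 11.6, 77.9 and 35.9 FPKM in 5-Fu and 180, 137 and 37.8 FPKM in 5-Fu+BBR. Library 2 of 5-Fu was 6.72-fold above library 1, and it was also above library 3 of 5-Fu+BBR. Ifit2 (ENSMUSG00000045932) was at 20.9, 78.0 and 38.5 FPKM in 5-Fu and 232, 278 and 50.9 FPKM in 5-Fu+BBR, with library 2 of 5-Fu+BBR ahead of library 1. Its log2 fold change was 2.05 ± 0.75 (adjusted p = 0.285).

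Ifit3 (ENSMUSG00000074896) and Ifit3b (ENSMUSG00000062488), whose promoter stretches are identical, also ran in parallel. Ifit3 was at 7.11, 52.1 and 14.8 FPKM in 5-Fu and 157, 119 and 19.9 FPKM in 5-Fu+BBR. Ifit3b was at 5.31, 40.7 and 9.13 FPKM and at 100, 81.0 and 18.2 FPKM. As the transcripts are near copies too, reads shared between them may contribute to the likeness, which was not tested. Library 1 of 5-Fu+BBR exceeded library 3 of that group 7.87-fold for Ifit3, the largest such ratio of the 33 genes, and 5.50-fold for Ifit3b. The log2 fold changes of 2.05 ± 0.99 and 1.91 ± 0.95 had adjusted p of 0.392 and 0.405.

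Of the antiviral effectors, Mx1 (ENSMUSG00000000386) spanned the widest range of all 33 genes. Mx proteins are large GTPases that block viral nucleocapsids, and many inbred strains, BALB/c among them, carry an Mx1 allele without a working product, so its RNA reports on induction only. Mx1 was at 3.46, 27.0 and 9.12 FPKM in 5-Fu and 123, 145 and 15.9 FPKM in 5-Fu+BBR. The first 2 libraries of 5-Fu+BBR were far above the rest, and library 3 lay between libraries 3 and 2 of 5-Fu. The log2 fold change was 2.88 ± 1.06 (adjusted p = 0.285). Mx2 (ENSMUSG00000023341), its neighbour between 97447035 and 97560900 on chromosome 16, was at 1.46, 11.1 and 4.16 FPKM and at 30.1, 24.0 and 4.31 FPKM, the lowest levels of the list in 5-Fu library 1.

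Rsad2 (ENSMUSG00000020641), which encodes viperin, and Cmpk2 (ENSMUSG00000020638), a mitochondrial nucleotide kinase that makes the nucleotide it uses, are neighbours on chromosome 12 between 26442746 and 26479837. Rsad2 was at 6.05, 21.3 and 9.94 FPKM in 5-Fu and 53.4, 53.0 and 9.31 FPKM in 5-Fu+BBR. Cmpk2 was at 6.79, 28.5 and 13.7 FPKM and at 79.8, 80.1 and 14.1 FPKM. In both, libraries 1 and 2 of 5-Fu+BBR were nearly equal, and library 3 was at the level of 5-Fu library 3. The log2 fold changes were 1.66 ± 0.76 (Rsad2, adjusted p = 0.373) and 1.85 ± 0.80 (Cmpk2, adjusted p = 0.345).

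Bst2 (ENSMUSG00000046718, chromosome 8, 71534255 to 71537456, minus strand) encodes tetherin, which holds budding virus at the cell surface. It had the smallest p of the 33 genes. Its level was 30.7, 75.3 and 52.5 FPKM in 5-Fu and 193, 230 and 66.3 FPKM in 5-Fu+BBR. Here too library 3 of 5-Fu+BBR lay within the range of 5-Fu (log2 fold change 1.63 ± 0.54, adjusted p = 0.251). Ifi44 (ENSMUSG00000028037, chromosome 3, 151730922 to 151749960, minus strand), an interferon-induced protein of less defined function, ran from 2.19 to 15.6 FPKM in 5-Fu and from 10.6 to 44.2 FPKM in 5-Fu+BBR. Its libraries 1 and 2 of 5-Fu+BBR were above, and library 3 within, the 5-Fu range (1.87 ± 0.84, adjusted p = 0.361).

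Isg15 (ENSMUSG00000035692, chromosome 4, 156199455 to 156200796, minus strand) is a ubiquitin-like protein that is coupled to other proteins during an interferon response. It reached the highest level per length of the list, at 48.7, 213 and 123 FPKM in 5-Fu (mean 128 ± 82.2 SD, n = 3) and 458, 646 and 147 FPKM in 5-Fu+BBR (mean 417 ± 252 SD, n = 3). The SD was large against the mean in each group, and library 3 of 5-Fu+BBR was below library 2 of 5-Fu. Usp18 (ENSMUSG00000030107, chromosome 6, 121245906 to 121270917, plus strand) removes Isg15 from proteins and also shuts off the type I receptor. Its levels of 8.73, 32.5 and 13.5 FPKM in 5-Fu and 71.1, 102 and 19.0 FPKM in 5-Fu+BBR had the order of Isg15, with library 2 of 5-Fu+BBR ahead. Herc6 (ENSMUSG00000029798, chromosome 6, 57581000 to 57664632, plus strand), the ligase that attaches Isg15 in mice, had library 1 ahead and ran from 2.90 to 10.8 FPKM in 5-Fu and from 5.62 to 18.8 FPKM in 5-Fu+BBR. The log2 fold changes were 1.71 ± 0.71 (Isg15, adjusted p = 0.330), 1.83 ± 0.73 (Usp18, adjusted p = 0.318) and 1.09 ± 0.62 (Herc6, adjusted p = 0.464).

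Parp9, Dtx3l and Parp14, which lie together on chromosome 16 between 35832874 and 35972605, differed least between libraries as a group. Parp9 and the ubiquitin ligase Dtx3l work as a pair in the repair of DNA and in interferon signalling, and Parp14 is an ADP-ribosyltransferase. Parp9 (ENSMUSG00000022906) was at 31.0, 43.3 and 30.0 FPKM in 5-Fu and 68.6, 58.5 and 31.8 FPKM in 5-Fu+BBR. Dtx3l (ENSMUSG00000049502) was at 22.6, 36.7 and 21.6 FPKM and at 54.4, 41.0 and 22.0 FPKM. In CPM, library 3 of 5-Fu+BBR was the lowest of all 6 libraries for Dtx3l and for Parp14 (ENSMUSG00000034422), while it exceeded 5-Fu library 1 for the other 31 genes. The log2 fold changes ran from 0.56 (Dtx3l) to 0.68 (Parp14), with adjusted p from 0.351 to 0.502. The annotated ends of Parp9 and Dtx3l overlap on opposite strands, and the sources used here do not say whether the counting used the strand, so reads in the overlap may belong to either.

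Trim30a (ENSMUSG00000030921, chromosome 7, 104409025 to 104465193, minus strand), a ubiquitin ligase that restrains inflammatory signalling, was the gene whose groups did not overlap in CPM. It was at 32.2, 109 and 80.1 CPM in 5-Fu and at 322, 304 and 111 CPM in 5-Fu+BBR. The gap was narrow, since 5-Fu+BBR library 3 was just above 5-Fu library 2. In FPKM the order of these libraries turned, at 23.0 against 23.7, and 0 of the 33 genes had groups that did not overlap (of all genes tested, 11.5% did with 5-Fu+BBR higher and 8.47% lower). The log2 fold change was 1.74 ± 0.58 (adjusted p = 0.257).

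Ifi27 (ENSMUSG00000064215, chromosome 12, 103434211 to 103440239, plus strand), which encodes a small mitochondrial protein, was the exception of the list. It was at 17.2, 18.2 and 32.9 FPKM in 5-Fu and 11.3, 21.8 and 31.6 FPKM in 5-Fu+BBR. Its lowest library, 5-Fu+BBR library 1, was the highest for 26 of the other genes, and library 3 was the highest in each group. The log2 fold change was -0.11 ± 0.44 (adjusted p = 0.930), and it was 0.33 without 5-Fu library 3 and 0.18 without 5-Fu+BBR library 1.

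The remaining genes kept the common pattern. Rtp4 (ENSMUSG00000033355, chromosome 16, 23520291 to 23614222, plus strand), a chaperone of receptors, ran from 23.1 to 54.5 FPKM in 5-Fu and from 43.8 to 107 FPKM in 5-Fu+BBR, a log2 fold change of 1.02 ± 0.42 (adjusted p = 0.321). Xaf1 (ENSMUSG00000040483, chromosome 11, 72301629 to 72313733, plus strand), a promoter of cell death, ran from 4.28 to 14.7 and from 9.93 to 28.7 FPKM (1.31 ± 0.57, adjusted p = 0.351). Ifi35 (ENSMUSG00000010358, chromosome 11, 101448407 to 101458698, plus strand) ran from 21.1 to 35.0 and from 26.8 to 66.1 FPKM (0.88 ± 0.35, adjusted p = 0.302). Each overlapped between the groups through 5-Fu+BBR library 3.

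The genes moved together to the extent that 8 orders of the 6 libraries in CPM covered all 33. The commonest, from low to high 5-Fu 1, 5-Fu 3, 5-Fu+BBR 3, 5-Fu 2, 5-Fu+BBR 2, 5-Fu+BBR 1, was shared by 14 genes, beside 0.572% of all genes tested. It took in all 3 transcription factors and all 3 RNA sensors, and the effectors Oas1a, Oas3, Oasl2, Ifit3, Ifit3b, Ifi44, Rtp4 and Xaf1. Another 8 genes differed from it only in that 5-Fu+BBR 3 fell below 5-Fu 3: Oas1g, Oasl1, Ifit1, Rsad2, Cmpk2, Mx2, Herc6 and Parp9. In 5 more, 5-Fu+BBR 2 was ahead of 5-Fu+BBR 1: Ifit2, Mx1, Bst2, Isg15 and Usp18. Neighbours did not always share an order, since Ifit2 differed from the other 3 genes of its cluster in its highest library, and Mx1 from Mx2. The genes share libraries and depth, so these counts describe 6 libraries and not independent trials.

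The spread within each group was large for these genes. Over the 3 libraries of 5-Fu the median range was 1.74 on the log2 scale of CPM, beside 0.43 for all genes tested and 0.40 for the 15793 genes that reached a mean of 1 CPM. Over the 3 libraries of 5-Fu+BBR it was 1.72, beside 0.36 and 0.33. Mx1 had the widest range in both groups (2.84 and 3.15), and Parp9 (0.40 in 5-Fu) and Irf9 (0.79 in 5-Fu+BBR) had the narrowest. By role, the median range within 5-Fu was 0.87 for the transcription factors, 1.85 for the RNA sensors, 1.58 for the OAS family, 2.70 for the IFIT family and 0.61 for the Parp9 and Dtx3l group. The range within 5-Fu+BBR was larger than the size of the log2 fold change between the groups for 31 of the 33 genes. For the range within 5-Fu it was 22 of the 33. The same shares over all genes tested were not computed.

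**Figure D3:**
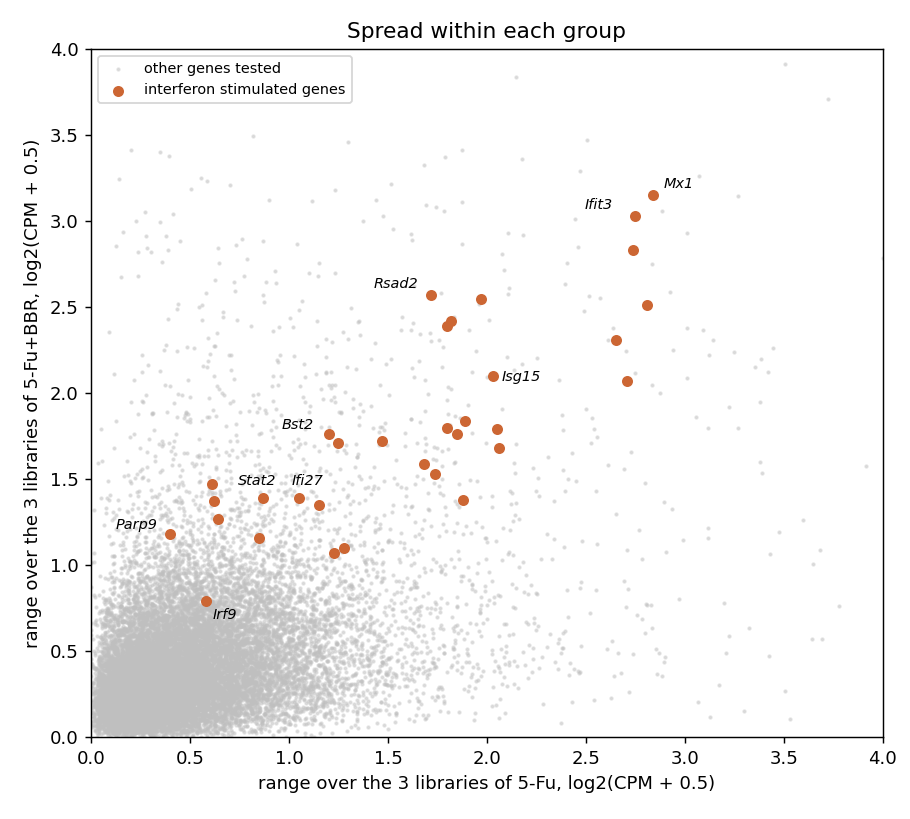
Range over the 3 libraries of 5-Fu (x axis) against the range over the 3 libraries of 5-Fu+BBR (y axis), both in log2(CPM + 0.5), for the 33 interferon stimulated genes (orange) and the other genes tested (grey), of which 24 lie beyond the axis limit of 4. The orange points spread from Irf9 and Parp9 at the lower left to Mx1 at 2.84 and 3.15, while most grey points lie near the medians of 0.43 and 0.36.

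A search over 13719 genes outside the list, which had a mean of 1 CPM or more and were neither predicted genes nor pseudogenes, gave those whose profile was closest to the median profile of the 33. The measure was the root mean square difference over the 6 libraries, in log2, with a median of 0.99 over the genes compared and of 0.35 over the 33 themselves. The 10 closest genes outside the list were Ddx60 (0.12), Mndal and Ptprcap (0.14), Sp100 (0.15), Gvin1 and Oas1b (0.16), Zbp1 (0.18), Mgl2 (0.21), Slfn2 (0.22) and Trex1 (0.23). Ddx60, a helicase, was at 7.16, 28.7 and 15.4 FPKM in 5-Fu and 58.1, 52.6 and 21.5 FPKM in 5-Fu+BBR, in the commonest order of the list. Ptprcap, a partner of the leukocyte phosphatase CD45, had the same order at much lower levels, 0.275, 1.19 and 0.586 FPKM against 2.94, 2.86 and 0.651 FPKM. Within the list Xaf1 (0.06), Irf7 (0.09) and Ddx58 (0.12) were closest to the median profile, and Mx1 (0.96) and Ifi27 (1.27) the farthest.

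The interferons themselves were near the limit of detection. Of 21 ligand genes looked for, 9 were in the table and 3 passed the filter on low counts. Ifnb1, the gene of interferon beta, had 0, 10 and 0 counts in 5-Fu and 2, 3 and 0 in 5-Fu+BBR, too few to test. The lambda interferon Ifnl2 had 0, 31 and 0 counts and 15, 11 and 4 counts, and Ifnl3 had 1, 34 and 10 and 20, 9 and 0. Ifna2 and Ifna4 had 4 counts each, all in 5-Fu+BBR library 1, which was the highest library for 26 of the 33 genes. Ifna5 had 4 counts, in 5-Fu library 2 only, and Ifnk 4, in 5-Fu library 3 only. Ifnz had 0, 5 and 5 counts in 5-Fu and 2, 3 and 2 in 5-Fu+BBR. Ifnb1, Ifnl2 and Ifnl3 each had their highest count of the 6 libraries in 5-Fu library 2. Within 5-Fu that was the highest library for 31 of the 33 genes. Over all 6 libraries, however, 32 of the 33 genes were highest in 5-Fu+BBR libraries 1 and 2. Ifnl2 and Ifnl3 are near copies, and their separate counts are uncertain. Ifng, the type II interferon of T and NK cells, followed another order, at 1.94, 0.155 and 0.212 FPKM in 5-Fu and 0.370, 0.825 and 0.0496 FPKM in 5-Fu+BBR, a log2 fold change of -0.88 ± 1.18 (adjusted p = 0.770).

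Ifnar1, Ifnar2, Jak1 and Tyk2, the receptor chains and kinases of the type I pathway, had log2 fold changes between 0.02 and 0.40, and 0 of these 4 were called. The receptor chain Ifnar2 was at 3.43, 4.92 and 3.75 FPKM against 5.75, 5.25 and 4.91 FPKM (log2 fold change 0.40 ± 0.16, adjusted p = 0.286 with edgeR). For Ifnar1, Jak1 and Tyk2 the log2 fold changes were 0.10 ± 0.10, 0.13 ± 0.10 and 0.02 ± 0.12 (adjusted p = 0.653, 0.573 and 0.944). Jak2, which serves the interferon gamma receptor, was at -0.15 ± 0.10 (adjusted p = 0.539).

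Of 14 genes that induce interferon, 0 were called by edgeR at an adjusted p under 0.05, and the median was 0.22. At an unadjusted p under 0.05 there were 5, beside 9.47% of all genes tested higher and 6.08% lower. The endosomal sensors Tlr9 and Tlr7, of DNA and of RNA, had the smallest p. Tlr9 was at 0.244, 0.683 and 0.308 FPKM in 5-Fu and 2.16, 1.78 and 1.04 FPKM in 5-Fu+BBR (2.03 ± 0.44, adjusted p = 0.120). Tlr7 was at 0.572, 0.766 and 0.758 FPKM and at 2.23, 2.14 and 1.04 FPKM (1.36 ± 0.33, adjusted p = 0.146). Their groups did not overlap, as for Irf5 (0.96 ± 0.31, adjusted p = 0.221) and the kinase Tbk1 (0.35 ± 0.12, adjusted p = 0.241), all chosen by their p. Of all genes tested, 12.3% had groups that did not overlap in CPM with 5-Fu+BBR higher. The adaptor Mavs (-0.03 ± 0.17, adjusted p = 0.952) and the transcription factor Irf3 (0.01 ± 0.16, adjusted p = 0.984) were near 0.

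Of 8 brakes on the response 0 were called, and the median was 0.38. At an unadjusted p under 0.05 with edgeR there were 5 in either direction, beside 9.47% of all genes tested higher and 6.08% lower. Socs3, an inhibitor of Janus kinases, had the lowest p at 42.0, 14.6 and 32.1 FPKM in 5-Fu and 9.49, 6.71 and 5.58 FPKM in 5-Fu+BBR, lower in every 5-Fu+BBR library (-2.04 ± 0.45, adjusted p = 0.151). Ptpn6, a phosphatase of blood cells, was higher in every one (0.74 ± 0.20, adjusted p = 0.163). Samhd1 overlapped between the groups (0.91 ± 0.34, adjusted p = 0.273), and Rnaseh2b did not (-0.53 ± 0.21, adjusted p = 0.283). Of all genes tested, 12.3% did not overlap in CPM with 5-Fu+BBR higher and 9.68% with it lower.

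A further 45 interferon stimulated genes showed the pattern of the 33 in a weaker form. At an unadjusted p under 0.05 with edgeR there were 22 of these, beside 9.47% of all genes tested higher and 6.08% lower. Of the 45, 0 were called, 42 had positive log2 fold changes (50.7% of all genes tested), and the median was 0.95. Their median level relative to the 5-Fu mean was -0.40, 0.43 and -0.02 in 5-Fu and 1.46, 1.14 and 0.07 in 5-Fu+BBR. Of the 45, 40 were highest in 5-Fu+BBR libraries 1 and 2 (9.46% of all genes tested). For 28 of the 45, 5-Fu+BBR library 3 lay within the 5-Fu range (45.3% of all genes tested). The 4 with the smallest p were Parp11 (1.57 ± 0.38, adjusted p = 0.159), Slfn1 (2.91 ± 0.74, adjusted p = 0.182), Helz2 (1.24 ± 0.35, adjusted p = 0.191) and Slfn8 (2.26 ± 0.64, adjusted p = 0.210). Slfn1, of the Schlafen family, was at 1.98, 4.24 and 1.95 FPKM in 5-Fu and 30.2, 25.5 and 4.87 FPKM in 5-Fu+BBR, so that libraries 1 and 2 stood far above library 3.

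The genes that interferon gamma drives most strongly, 11 GTPases and the transcription factor Irf1, differed from the 33 within the 5-Fu group. Their medians were 0.47, 0.00 and -0.41 in 5-Fu libraries 1, 2 and 3, where library 1 was highest, and 1.36, 1.10 and -0.25 in 5-Fu+BBR. The 5-Fu order of the list, library 1 then 3 then 2, was found for 0 of these 12 genes. Like the 33, however, 11 of the 12 were highest in 5-Fu+BBR libraries 1 and 2 (9.46% of all genes tested). For 9 of the 12, 5-Fu+BBR library 3 lay within the 5-Fu range (45.3% of all genes tested). All 12 had positive log2 fold changes, with a median of 0.87 and 0 called. Over all genes, edgeR gave 9.47% higher and 6.08% lower at an unadjusted p under 0.05, and among the 12 it gave 1 gene. That gene was Gbp3, at 14.8, 28.7 and 12.9 FPKM in 5-Fu and 76.6, 73.9 and 17.1 FPKM in 5-Fu+BBR (1.60 ± 0.62, adjusted p = 0.303). Next by p were Gbp7 (0.95 ± 0.41, adjusted p = 0.335), Gbp2 (0.81 ± 0.37, adjusted p = 0.361) and Gbp6 (1.49 ± 0.76, adjusted p = 0.415). The letters of the response element were found in promoters of 8 of the 9 genes of this group with an entry (88.9%), and of 17 of the 39 other interferon stimulated genes with one (43.6%).

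**Figure D4:**
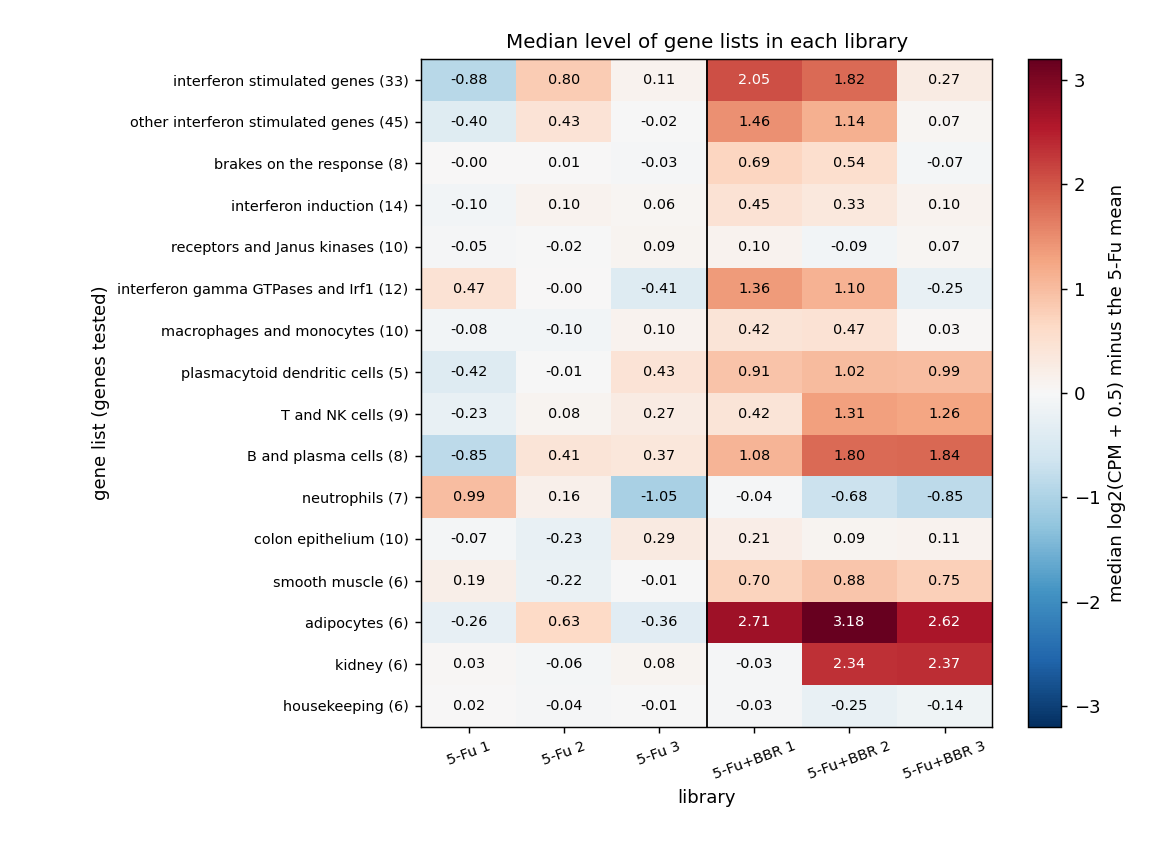
Median level of gene lists in each library, as log2(CPM + 0.5) minus the mean of the 5-Fu libraries (blue below, red above), with the number of genes tested in brackets. The interferon stimulated genes run -0.88, 0.80, 0.11 in 5-Fu and 2.05, 1.82, 0.27 in 5-Fu+BBR, while adipocyte markers are high in all 3 libraries of 5-Fu+BBR and kidney markers in libraries 2 and 3.

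In whole tissue, more cells of a type and more RNA per cell cannot be told apart, so markers of cells that respond to or make interferon were set beside the list. The 10 macrophage and monocyte markers were all above 0 in every library, and their summed level was 470 to 600 CPM in 5-Fu and 692 to 894 CPM in 5-Fu+BBR. Their medians were -0.08, -0.10 and 0.10 in 5-Fu and 0.42, 0.47 and 0.03 in 5-Fu+BBR, with the same libraries ahead as for the 33 genes at a smaller size. Lyz2, the lysozyme of myeloid cells, was at 169, 181 and 213 FPKM and at 296, 380 and 289 FPKM, and Csf1r, the receptor for their growth factor, at 4.76, 5.61 and 4.42 FPKM and at 7.47, 8.82 and 7.71 FPKM. Both were above the 5-Fu range in every 5-Fu+BBR library, as were Cd68 and Ms4a7, so 4 of the 10. In CPM this held for 12.3% of all genes tested. In 5-Fu+BBR library 3, C1qa, C1qb, C1qc and Mrc1 lay within the 5-Fu range and Adgre1 and Fcgr1 below it, as 32 of the 33 genes lay within or below it. The part of macrophages in the interferon pattern was not tested.

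Plasmacytoid dendritic cells are the main producers of interferon alpha. Of their 6 markers 5 passed the filter on low counts. Cox6a2 did not, with 7, 0 and 8 counts in 5-Fu and 8, 24 and 2 counts in 5-Fu+BBR. The medians of the 5 markers were -0.42, -0.01 and 0.43 in 5-Fu and 0.91, 1.02 and 0.99 in 5-Fu+BBR. Siglech, the most specific of them, was low throughout, at 0.0320, 0.0864 and 0.0595 FPKM in 5-Fu and 0.218, 0.531 and 0.298 FPKM in 5-Fu+BBR. The summed level of 248 to 838 CPM came mostly from Klk1, at 196 to 649 FPKM, which other cells of the gut also make. T and NK cell markers (medians 0.42, 1.31 and 1.26 in 5-Fu+BBR) and B and plasma cell markers (1.08, 1.80 and 1.84) were as high in library 3 as in library 2. In both lists the lowest median of 5-Fu+BBR was that of library 1. Gene by gene the T and NK list was mixed, since Cd247 and Ncr1 were lowest within 5-Fu+BBR in library 3 and Klrb1c in library 2. For 32 of the 33 interferon stimulated genes the lowest library of 5-Fu+BBR was library 3.

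Markers of other cells moved with the groups as well. Adipocyte markers had medians of -0.26, 0.63 and -0.36 in 5-Fu and 2.71, 3.18 and 2.62 in 5-Fu+BBR, and smooth muscle markers 0.19, -0.22 and -0.01 against 0.70, 0.88 and 0.75. Kidney markers, at -0.03, 2.34 and 2.37 in 5-Fu+BBR, were high in library 3 and not in library 1. The median of the interferon stimulated genes was the reverse in these 2 libraries. In library 2 both were high, at 2.34 and 1.82. Neutrophil markers had medians of 0.99, 0.16 and -1.05 in 5-Fu, opposite to the 5-Fu order of the list in library 1. In 5-Fu+BBR these medians were -0.04, -0.68 and -0.85, with library 1 highest and library 3 lowest, as for most of the 33 genes. The neutrophil markers were mixed, and 1 of the 7, Mmp9, had the 5-Fu order of the list (14.9% of all genes tested). Fibroblast markers had medians of 0.01, 1.11 and -1.13 in 5-Fu and 1.03, 0.54 and 0.34 in 5-Fu+BBR, and endothelial markers -0.12, 0.48 and -0.37 against 0.55, 0.13 and 0.04. Like the 33 genes, both lists were highest in library 2 within 5-Fu and in library 1 within 5-Fu+BBR, while their lowest 5-Fu library was library 3. The medians of colon epithelium (-0.23 to 0.29) and housekeeping genes (-0.25 to 0.02) moved little, but single genes in them moved more. The epithelial gene Aqp8 was at 40.3, 24.1 and 184 FPKM in 5-Fu and 164, 221 and 384 FPKM in 5-Fu+BBR. Slc26a3 was at 73.4, 32.2 and 101 FPKM and at 47.1, 45.9 and 107 FPKM. The housekeeping gene Hprt was lower in every 5-Fu+BBR library in CPM (-0.34 ± 0.12, adjusted p = 0.247 with edgeR). The part of these tissues in the values of the 33 genes was not tested.

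Set beside the values, the letters of the response element divided the list little. The 13 genes with a match had a median log2 fold change of 1.53 (0.87 to 2.05), and the 11 with an entry and no match had 1.31 (0.56 to 2.05). Over the 6 libraries the median SD in log2 CPM was 1.14 and 1.04. Ifit2, without the letters in its window, and Ifit3, with 2 matches, had the same log2 fold change of 2.05. Irf7 and Irf9 had none in the window and followed Stat2, which had 1, in the order of the libraries.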

How the data were processed

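RNA was measured in 6 libraries. Polyadenylated RNA was made, per the labels' protocols, into strand-marked libraries with molecular identifiers and sequenced as read pairs of 150 bases. GRCm38, edgeR, StringTie 1.3.4d, cutadapt 1.9, DESeq2, HISAT2 2.0.4 and UMI-tools are named, without their roles, in the submitters' processing notes. The deposited table holds estimated counts, as whole numbers, and FPKM, both computed by the authors; use of the molecular identifiers or the strand in counting is not given in these sources. Coordinates are those of the deposited table.

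The estimated counts were filtered (filterByExpr), scaled (TMM) and tested with edgeR 4.0.16 in R 4.3.3 (robust quasi-likelihood, two-sided, no covariates), p adjusted by Benjamini and Hochberg's method over 20101 genes and a threshold of 0.05. The biological coefficient of variation was 0.296. The steps were tested on simulated data, in 3 simulations. Of planted changes 49.3% were found at 2-fold and 87.3% at 4-fold, and 8.28% of the calls were false. The changed genes were drawn at random, so these shares were not measured for the 33 genes. Spread, order and medians use log2(CPM + 0.5). FPKM are given for levels. Genes are called neighbours within 300000 bases. The 33 genes and all gene lists were chosen with earlier results of these data known. Named are all 33 genes, from each pathway list the 4 of smallest p and any called, a few genes for their role, the 10 genes nearest in profile, and 1 promoter per role with a match. Tmem173 and Mb21d1 were matched through RefSeq synonyms. Alternatives were DESeq2 1.42.0, limma-voom and limma-trend (limma 3.58.1), other scalings, filters, pseudocounts and thresholds, counts divided by 4, a replicate block, and leaving out each library. Figures used Python with matplotlib. Some genes of the pathway lists are not reported here.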

Additional observations from a re-analysis of the deposited data

How the results depend on the processing

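Of 561 log2 fold changes of single genes of the 33 recomputed under an alternative, 558 kept their direction and their side of the threshold. DESeq2 called 1 of the 33 higher (Stat2, log2 fold change 0.99, adjusted p = 0.0407), and in all other fits 0 were called. Ifi27 turned to 0.33 without 5-Fu replicate 3 and to 0.18 without 5-Fu+BBR replicate 1, and ran from -0.49 to 0.33 with 1 library left out. In FPKM 0 in place of 1 gene had groups that did not overlap. The median of the 33 was 1.03 to 1.86 with 1 library left out and 1.38 to 1.45 in the other fits. Over all genes, edgeR called 12 higher and 3 lower. DESeq2 called 839 and 261, no filter on low counts 64 and 13, and an adjusted p under 0.1 gave 119 and 25. limma-trend called 1 lower on log2(FPKM + 0.1), and 0 and 0 on log2(FPKM + 1) without a filter. With 1 library left out, calls ran from 0 to 145 higher and from 0 to 15 lower. The causes were not tested.

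With the replicate number as a block, 0 of the 33 were called (lowest adjusted p = 0.322, 0 at an unadjusted p under 0.05, median 1.43), and 91 genes were called higher and 22 lower. The labels do not say that a number pairs libraries. Deviations from the group means correlated across genes at 0.0622, 0.0237 and 0.0955 between libraries of the same number, and 5-Fu library 2 correlated best with 5-Fu+BBR library 1 (0.0756).

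The depth did not limit the 33 genes, whose lowest level was 1.46 FPKM (Mx2), but it left Ifnb1 untestable. The precision of each fold change was limited by 3 libraries per group with median ranges of 1.74 and 1.72 on the log2 scale within them.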
